A study of Rattus norvegicus with 10 samples.

Results

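Autophagy is the process by which a cell encloses its own cytoplasm, proteins or mitochondria in a membrane, the autophagosome, and delivers them to the lysosome, where proteases break them down. The ULK1 kinase complex starts it, the Beclin 1 lipid kinase complex forms the membrane, proteins of the LC3 and GABARAP families are attached to that membrane, receptors bring the cargo, and cathepsins digest it. In skeletal muscle the process is known to supply amino acids during fasting and to remove damaged mitochondria.

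The 10 genes described here were chosen by name, with earlier results of these data known. They were the membrane proteins Gabarapl1, Map1lc3a and Map1lc3b, the receptors Sqstm1, Bnip3 and Bnip3l, and the lysosomal proteases Ctsl and Ctsb. The others were Ulk1, of initiation, and Becn1, of the complex that forms the membrane (nucleation). The platform annotation paired 9 of them with 16 probe sets of their own, out of 31042 probe sets that carry 14217 gene symbols. The only probe set of Map1lc3b also carries its copy Map1lc3b2, so Map1lc3b is given no value. Of the 16 probe sets, 15 passed the filter on low signal and were tested, and the 9 genes all kept at least 1. The untested probe set was the dimmest of the 4 for Sqstm1, with signals of 1 to 9.8.

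The samples were gastrocnemius, a calf muscle, of male Wistar rats that entered the experiment at 6 weeks of age. Rats received either the full recorded daily intake (control) or 5%, 10%, 20% or 30% less of the same AIN-93G diet (calorie restriction, CR) for 1 week or 1 month. All groups, controls included, were fasted for 16 h before collection. RNA of the 5 rats of a group was pooled on 1 Affymetrix array, so there were 10 arrays, no group had a replicate, and the spread between rats was not measured. For the control and 5% CR arrays of 1 week, a second line of the description states a feeding opposite to the title and diet label. Groups follow the titles, and results were repeated with both arrays exchanged.

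The probe sets of 9 fast fibre markers had a mean log2 signal of 12.55 to 13.25, in a muscle known for mostly fast fibres. Their mean log2 ratio to control lay between 0.07 and 0.14 at 1 week and between −0.61 and −0.26 at 1 month, so they were lower on the 1-month restricted arrays that gave Gabarapl1 and Ctsl above control, and their part was not tested. Slow fibre markers were lowest on the 1-week control, with a mean log2 signal of 8.19 against 8.88 to 10.03 on the other 9 arrays. The actin 3' to 5' ratio, a sign of RNA integrity, was 1.70 on the 1-week control while the others had 1.24 to 1.61. The same ratio for GAPDH was 1.076 on that control, within the 1.02 to 1.079 of the others. The arrays of both durations were scaled differently by the authors, with a trimmed mean signal of 99.6 at 1 week and 86.4 at 1 month. Below, a log2 ratio sets a restricted array against the control array of its own duration, and a gene was called when limma's adjusted p (Benjamini-Hochberg over 15521 probe sets) was under 0.05.

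Gabarapl1 and Ctsl were the members called for a rise with restriction, in comparisons that each called 2.0% of all probe sets. Gabarapl1, a GABARAP family protein attached to the growing autophagosome, was higher on all 8 restricted arrays than on the control of the same duration. Ctsl, the lysosomal cysteine protease cathepsin L, was also higher on all 8 (on 7 under median centring), as were 8.20% of all probe sets. Its fitted slope on the level of restriction was positive, though the signal did not rise at every step. Gabarapl1 was called against control and by level, Ctsl by level and not against control. The Gabarapl1 calls held in 9 of 20 and 6 of 21 alternative settings. The remaining 7 measured genes were not called in either comparison.

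**Figure D1:**
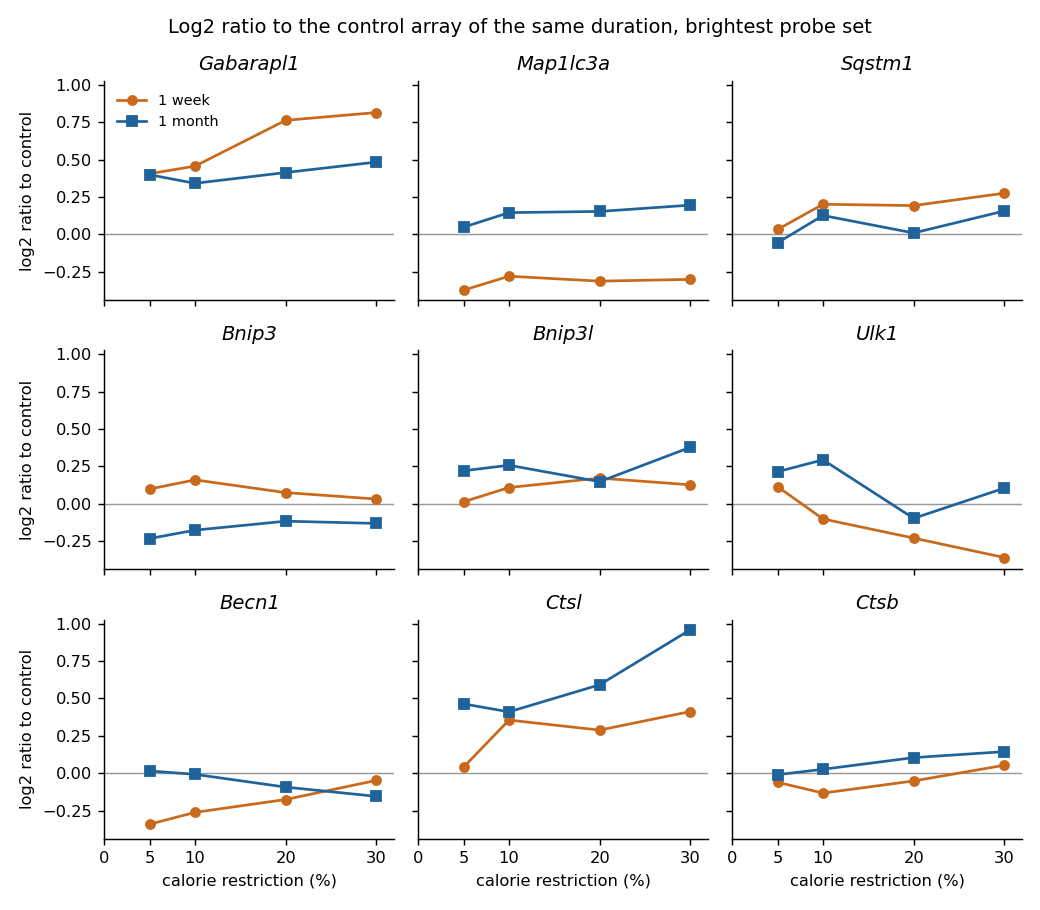
Each panel plots 1 gene (its brightest probe set) as its log2 ratio to the duration's own control array, against the level of CR in percent, after 1 week (circles) and 1 month (squares). Every point is 1 array, and there are no error bars because no group had a replicate. Gabarapl1 and Ctsl lie above 0 throughout, Map1lc3a and Bnip3 lie on opposite sides of 0 at the 2 durations, and Ctsb stays near 0.

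The promoters of Gabarapl1 and Ctsl are shown because these genes moved with restriction, and that of Bnip3 because it is the listed promoter that held an E-box. Sequences are from the RefSeq promoter table of rat build GRCr8, which held 6 of the 10 listed genes, and span 250 bases before the gene start and the first 50 bases of the gene. Capitals mark the motif named after each.
Gabarapl1, chr4:164666082-164666381, plus strand: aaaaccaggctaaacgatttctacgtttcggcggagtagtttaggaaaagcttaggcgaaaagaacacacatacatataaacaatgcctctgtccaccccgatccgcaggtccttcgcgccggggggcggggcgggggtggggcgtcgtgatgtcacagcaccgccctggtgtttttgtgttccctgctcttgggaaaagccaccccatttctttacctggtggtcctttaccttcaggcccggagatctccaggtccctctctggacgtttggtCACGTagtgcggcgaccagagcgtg
Ctsl, chr17:769854-770153, plus strand: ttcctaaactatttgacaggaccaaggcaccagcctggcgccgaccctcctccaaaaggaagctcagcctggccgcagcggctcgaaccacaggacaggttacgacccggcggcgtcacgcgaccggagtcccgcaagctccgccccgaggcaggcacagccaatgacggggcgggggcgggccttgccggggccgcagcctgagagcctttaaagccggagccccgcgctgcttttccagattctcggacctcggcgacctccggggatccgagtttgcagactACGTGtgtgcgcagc
Bnip3, chr1:203154913-203155212, minus strand: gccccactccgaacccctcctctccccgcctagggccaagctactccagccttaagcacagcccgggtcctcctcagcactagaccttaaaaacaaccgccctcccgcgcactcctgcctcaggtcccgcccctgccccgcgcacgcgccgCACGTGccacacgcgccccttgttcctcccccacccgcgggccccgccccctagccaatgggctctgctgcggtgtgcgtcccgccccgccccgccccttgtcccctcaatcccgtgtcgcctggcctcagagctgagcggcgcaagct
3 motifs were searched on both strands. The core of the hypoxia response element, ACGTG or its reverse CACGT, began at base 26 of the Gabarapl1 gene and at base 36 of Ctsl, and 19.3% of 33469 promoters held it. The E-box CACGTG, the core of the element that the lysosomal regulator TFEB and the clock factors read, began 99 bases before the Bnip3 start, and was in 6.42% of all promoters. Each E-box contains the hypoxia core. The FOXO motif GTAAACA, or TGTTTAC, was in 0 of the 6 windows and in 3.78% of all promoters. These matches describe the letters of the windows and say nothing of binding.

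The first question was which members differed between rats on full and on restricted intake, whatever the level. On its brighter probe set, Gabarapl1 had a signal of 112 on the 1-week control and of 148, 154, 189.9 and 197 at 5%, 10%, 20% and 30% CR. At 1 month the signal was 152 on the control and 200, 192, 202 and 212 at the same levels. Each restricted array was thus above its own control, although the lowest 1-week restricted value was below the 1-month control. In folds, the restricted arrays of 1 week stood at 1.33 to 1.76 times their control and those of 1 month at 1.27 to 1.40 times.

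The brighter probe set of Gabarapl1 was 1.42-fold higher over the 8 restricted arrays than over the 2 controls (log2 0.51 ± 0.11, SE over 10 arrays, limma adjusted p = 0.0326). It was the only member called, 1 of 15 probe sets, in a comparison that called 2.0% of all probe sets tested in either direction, 1.13% positive and 0.876% negative. It was also the only member probe set with all 8 ratios at or above 0.25, a pattern of 1.40% of probe sets, and none had all 8 at −0.25 or lower, as 1.14% did. The dimmer probe set of Gabarapl1 had log2 ratios of 0.22 to 0.87, above 0 in all 8, with an estimate of 0.43 ± 0.16 that was not called (adjusted p = 0.210).

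The call of Gabarapl1 was held in 9 of 20 alternatives, whose adjusted p ranged from 0.0156 to 0.617. In either duration alone the call was lost (estimates of 0.61 at 1 week and 0.41 at 1 month). It was lost without the 1-week control (0.41, adjusted p = 0.301) or the 1-month control (0.61, adjusted p = 0.115), without the 20% arrays of either duration or the 1-month 30% array (adjusted p of 0.0517 to 0.057), under median centring (0.51, adjusted p = 0.0953), without the variance trend (adjusted p = 0.103), and when the 5% and control arrays of 1 week were exchanged (0.26, adjusted p = 0.617). Slow fibre markers were also above their control at 1 week, with a mean log2 ratio of 0.77 to 1.84, and at 1 month had −0.51 to 0.09. They did not follow Gabarapl1 level by level at 1 week. Their mean log2 signal was then 9.825, 8.954, 9.948 and 10.030 from 5% to 30% CR. With their mean as a covariate the estimate was 0.39 (adjusted p = 0.18). Their part in the result was not otherwise tested, and in a whole muscle fewer cells of a type and less RNA per cell cannot be told apart.

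Ctsl on its brighter probe set had a signal of 847 on the 1-week control and of 872, 1083, 1034 and 1127 from 5% to 30% CR. At 1 month it was 685 on the control and 944, 910.3, 1032 and 1332 on the restricted arrays. The 5% array at 1 week was within 1.03-fold of its control, and the 30% array at 1 month reached 1.94-fold. The dimmer Ctsl probe set gave 147 on the control and 154, 189, 194 and 209 at 1 week, and 131 on the control and 184, 170, 206 and 238 at 1 month. Both probe sets therefore ordered the arrays in nearly the same way, with a Pearson r of 0.979 over 10 arrays centred within duration. Against control, Ctsl had log2 estimates of 0.44 ± 0.13 (adjusted p = 0.104) and 0.47 ± 0.13 (adjusted p = 0.0936) on the brighter and dimmer probe sets, and neither was called.

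**Figure D2:**
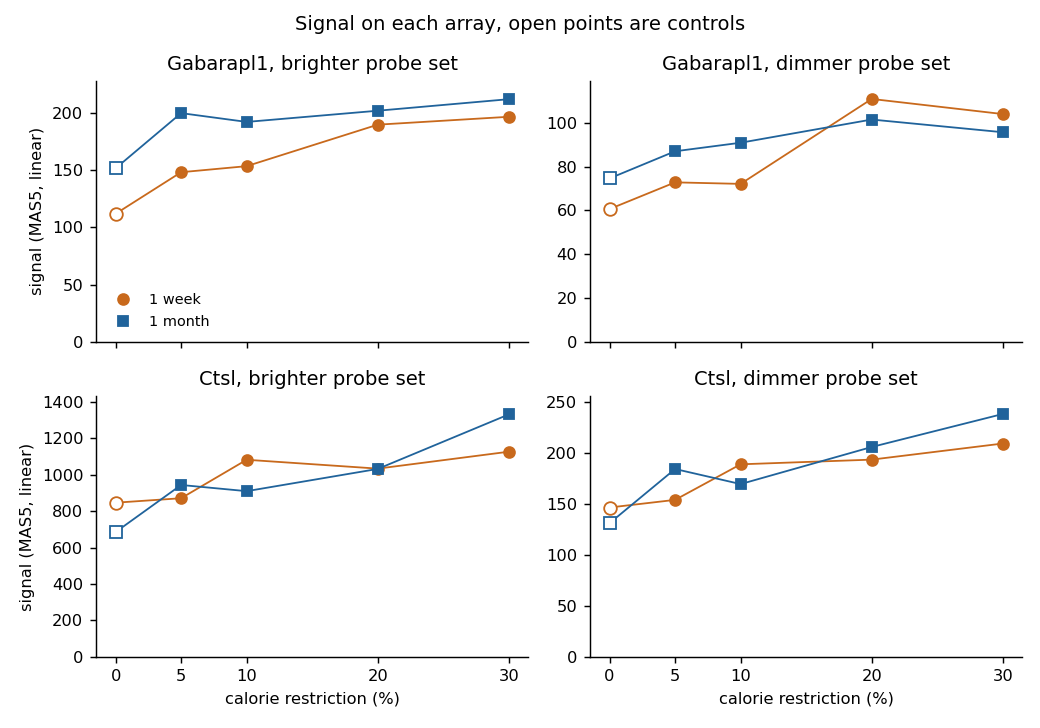
Signal on a linear scale that starts at 0, plotted against the level of CR in percent for both probe sets of Gabarapl1 (top) and Ctsl (bottom), after 1 week (circles) and 1 month (squares). Each point is 1 array and open points are the controls. In every panel the control is the lowest point of its duration, and the highest Ctsl point is the 30% array at 1 month.

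A second question was whether the signal followed the graded level of restriction. On its brighter probe set, Ctsl rose by 0.20 ± 0.04 log2 for each 10 percentage points of CR (SE over 10 arrays, limma adjusted p = 0.0131) and by 0.21 ± 0.04 on the dimmer one (adjusted p = 0.0135). Gabarapl1 rose by 0.19 ± 0.04 on its brighter probe set (adjusted p = 0.0422), and its dimmer probe set had a slope of 0.20 ± 0.05 that was not called (adjusted p = 0.0684). These were 3 of 15 member probe sets and 2 of 9 genes, where 2.0% of all probe sets were called, 0.941% with a positive and 1.06% with a negative slope. Under median centring the same comparison called 114 probe sets positive and 82 negative in place of 146 and 164.

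The slope of Ctsl on the brighter probe set was called in 17 of 21 alternatives, with adjusted p from 0.00489 to 0.196. It was lost without the 1-month 30% array (0.16, adjusted p = 0.0804), without the variance trend (0.20, adjusted p = 0.0966) and in either duration alone (0.13 at 1 week, 0.27 at 1 month). The dimmer probe set was called in 15 of 21, and its call was also lost without the 1-month control (adjusted p = 0.0584) and with slow fibre markers as a covariate (0.23, adjusted p = 0.0534). The slope of Gabarapl1 was called in 6 of 21 alternatives (0.12 to 0.25, adjusted p from 0.0151 to 0.563), and was lost when any array other than the 1-month 5% or 30% array was left out.

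Among the 8 restricted arrays alone, with no control in the fit, 0 of 15 member probe sets were called, in a comparison that called 0.245% of all probe sets. The estimates nearest to the threshold were those of Ctsl, 0.16 ± 0.04 (adjusted p = 0.128) and 0.16 ± 0.04 (adjusted p = 0.172). The brighter Gabarapl1 probe set had a slope of 0.11 ± 0.04 (unadjusted p = 0.0233 in limma, adjusted p = 0.394).

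Macrophages and fibroblasts hold cathepsins as well. The mean log2 ratios of their markers were highest at 30% CR after 1 month, as was the ratio of Ctsl. From 5% to 30% CR, Ctsl had log2 ratios of 0.041, 0.355, 0.288 and 0.412 at 1 week. At 1 month they were 0.463, 0.410, 0.591 and 0.959. The 13 macrophage probe sets, of which 11 passed the filter, averaged a log2 ratio of 0.34 to 0.45 at 1 week (0.36 at 5% CR). They averaged 0.01, 0.06, 0.45 and 0.66 from 5% to 30% CR at 1 month, and 2 of the 13 were above 0 in all 8 comparisons. Some markers were dim, with signals of 0.8 to 3.4 for Itgam, 13.7 to 29.2 for Cd68 and 12 to 28.2 for Ptprc. The brighter Lyz2 went from 228 on the 1-week control to between 263 and 288 under restriction, while at 1 month it was 289 on the control, lower at 5% CR and 463 at 30% CR. Csf1r was at 85.9 against 58.2 to 105 at 1 week, C1qb at 64.5 against 54.2 to 80.7, and Cd163, which differed more than these, at 13.3 against 39.2 to 53.2. C1qa (99.4 against 94.4 to 123.4) and C1qc (69.8 against 65.8 to 125) lay on both sides of that control. At 1 month C1qa rose from 72.6 on the control to 86.8, 95.1, 123.4 and 168.8 with the level of CR. C1qc rose from 37.8 to 61.7, 75, 76.6 and 127.9, and C1qb was 46.5 against 44.2, 54.2, 78.2 and 110.3. Csf1r was then 66.1 against 69.1 to 82.8, while Ptprc (23.6 against 15.8 to 28.2) lay on both sides of its control. The 8 fibroblast markers averaged 0.33 to 0.41 after 1 week and 0.20 to 0.62 after 1 month, and 5 of 8 were above 0 in all 8 comparisons. The 6 adipocyte markers, of which 3 passed the filter, averaged between 0.16 and 1.51 at 1 week and between −0.09 and 0.61 at 1 month. The part of these cells in the change of Ctsl was not tested.

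**Figure D3:**
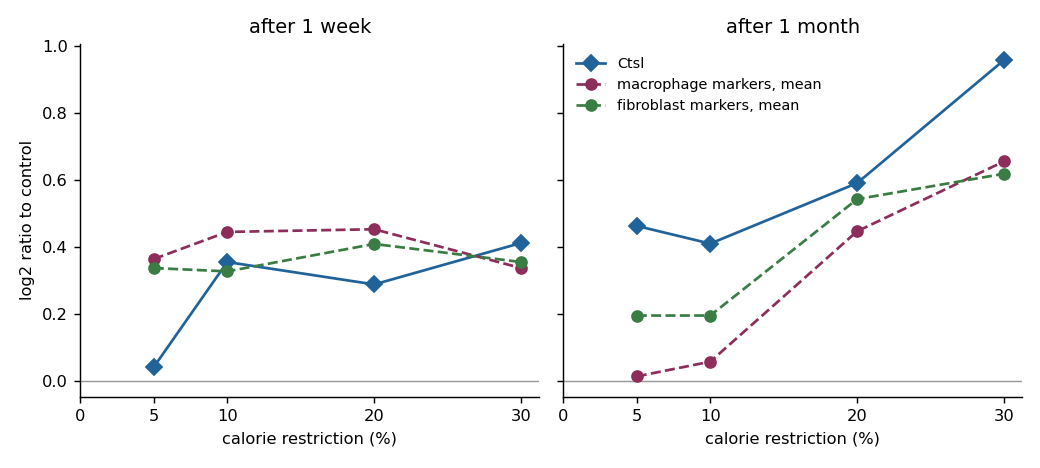
Log2 ratio to the duration's own control array against the level of CR in percent, after 1 week (left) and 1 month (right), for the brighter Ctsl probe set (diamonds) and for the mean over 13 macrophage and 8 fibroblast marker probe sets (dashed lines). Each point is 1 array or a mean of probe sets on 1 array. At 1 month all 3 lines are highest at 30% CR, where Ctsl is at 0.96, macrophage markers at 0.66 and fibroblast markers at 0.62.

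The genes whose signal ran most like each of these members are given as a description over 10 arrays that share controls and scaling. For Gabarapl1 they were Rusc2 (Pearson r = 0.994), Dgat2 (0.984), the fatty acid transporter Cd36 (0.983), Art1 (0.980) and Phlda3 (0.979), while its own dimmer probe set had r = 0.931. For Ctsl they were RGD1311745 (0.975), the selenium carrier Selenop (0.965), the macrophage growth factor Il34 (0.964), the lipoprotein Apoe (0.964) and Myoc (0.952).

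The other lysosomal protease, Ctsb (cathepsin B, also a cysteine protease), differed little from control. The 1-week control had a signal of 769.6 against 702 to 798 under restriction, and 598 was measured on the 1-month control against 593 to 660.0. The log2 estimate was 0.01 ± 0.07 against control (adjusted p = 0.975) and 0.04 ± 0.02 per 10 percentage points (adjusted p = 0.513).

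Of the other membrane protein, Map1lc3a, the signal moved in opposite directions at the 2 durations. It was 877 on the 1-week control and 678, 723, 706 and 712 on the restricted arrays of that week, so that all 4 lay below the control. At 1 month it was 727 on the control and 753, 805, 809 and 833 on the restricted arrays, all 4 above. Its log2 ratios ranged from −0.37 to −0.28 at 1 week and from 0.05 to 0.20 at 1 month, and the pooled estimate was −0.09 ± 0.09 (adjusted p = 0.708).

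The difference between the durations was tested directly. For Map1lc3a the log2 change at 1 month minus that at 1 week was 0.45 ± 0.13 (SE over 10 arrays, unadjusted p = 0.00431 in limma, adjusted p = 0.472), which did not pass. When the 5% and control arrays of 1 week were exchanged it was −0.01, and all 8 ratios lay above 0. In this comparison limma called 0 probe sets (1121 had an unadjusted p under 0.05), and 8.67% of probe sets had all 4 ratios of 1 duration on 1 side of 0 and all 4 of the other on the opposite side. Median centring moved the median of this contrast over all probe sets from −0.02 to 0.19, and the value for Map1lc3a to 0.66.

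Among the receptors, Sqstm1 (p62) binds ubiquitin-tagged cargo, and Bnip3 and Bnip3l (NIX) mark mitochondria for removal. The brightest Sqstm1 probe set had a signal of 2033 on the 1-week control and 2081, 2338, 2324 and 2461 on the restricted arrays. At 1 month it was 2127 on the control and 2046, 2323, 2142 and 2370.3. Thus 7 of 8 ratios were above 0, the exception being 5% CR at 1 month, and the values were 0.12 ± 0.08 against control (adjusted p = 0.537) and 0.07 ± 0.03 per 10 percentage points (adjusted p = 0.216). Its probe sets did not order the arrays alike: the second had ratios of −0.24 to 0.37, and the third, with signals of 11.6 to 28.4 near the filter, had −1.29 to 0.58.

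Bnip3 resembled Map1lc3a with the signs turned. The 1-week control had a signal of 2480.2 against 2536 to 2772 under restriction, and it was 2532 on the 1-month control against 2155 to 2336. All 4 restricted arrays were above the control at 1 week and all 4 below it at 1 month (3 of the 8 ratios were above 0 under median centring or quantile normalization, and 1 after the exchange of the 5% and control arrays of 1 week), with a difference of −0.26 ± 0.12 between the durations (unadjusted p = 0.0577 in limma, adjusted p = 0.702). Bnip3l on its brighter probe set was above its control in all 8 comparisons (log2 ratios between 0.01 and 0.17 at 1 week, between 0.15 and 0.38 at 1 month), as were 8.20% of all probe sets. No tested member probe set was below it in all 8, as 8.36% of all probe sets were. The estimate of 0.18 ± 0.08 was not called (adjusted p = 0.299). Under median centring, 6 of the 8 ratios of Bnip3l were above 0. After the exchange of the 5% and control arrays of 1 week, 3 of its 4 ratios of that week were.

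Of the genes of initiation and nucleation, Ulk1 encodes the kinase that starts autophagosome formation and Becn1 encodes Beclin 1. Ulk1 on its brighter probe set had a signal of 129 on the 1-week control and 139, 119.9, 109.7 and 100.3 from 5% to 30% CR. At 1 month it was 126 on the control and 146, 155, 118 and 136. The slope was −0.08 ± 0.04 per 10 percentage points (adjusted p = 0.412), and its difference between durations was 0.12 ± 0.09 (adjusted p = 0.875). The dimmer Ulk1 probe set lay below its control on all 4 restricted arrays at 1 week (−0.61 to −0.23) and above it on all 4 at 1 month (0.16 to 0.53). After the exchange of the 5% and control arrays of 1 week, 7 of these 8 ratios were above 0.

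Becn1 had a signal of 549 on the 1-week control against 433 to 531 under restriction, and of 433 on the 1-month control against 389 to 437. It was above its control in 1 of 8 comparisons, 5% CR at 1 month (2 under median centring, 0 under quantile normalization, and 5 when the 5% and control arrays of 1 week were exchanged), with an estimate of −0.13 ± 0.09 (adjusted p = 0.520).

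The remaining comparison set 1 month against 1 week at the same levels, after all arrays had been brought to 1 trimmed mean, because the deposited scaling placed the 1-week arrays 0.20 log2 above the 1-month arrays. Duration cannot be told apart here from age, since these were growing rats, or from the processing of the arrays in each duration. Gabarapl1, Map1lc3a and Ulk1 rose from 1 week to 1 month, 3 of 15 member probe sets, where 10.0% of all probe sets were called, 4.45% positive and 5.55% negative. These were the brighter probe sets of Gabarapl1 and Ulk1, whose dimmer ones had 0.33 ± 0.11 (adjusted p = 0.0742) and 0.26 ± 0.14 (adjusted p = 0.274) and were not called.

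Gabarapl1 had a rescaled log2 signal of 6.71 on the control and 7.11, 7.16, 7.47 and 7.52 from 5% to 30% CR at 1 week, and of 7.35, 7.75, 7.69, 7.77 and 7.84 at 1 month. It was higher at 1 month at all 5 levels, although the ranges overlapped, with an estimate of 0.48 ± 0.09 (1.40-fold, limma adjusted p = 0.00454) that was called in 19 of 19 alternatives (adjusted p up to 0.0332). Ulk1 ran from 6.55 to 7.02 at 1 week and from 6.99 to 7.38 at 1 month, also higher at all 5 levels (0.40 ± 0.10, 1.31-fold, adjusted p = 0.0167). Map1lc3a ran from 9.31 to 9.68 and from 9.61 to 9.81, higher at 4 of 5 levels and lower for the controls (0.30 ± 0.07, 1.23-fold, adjusted p = 0.0185).

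Without the rescaling, neither Map1lc3a (0.09, adjusted p = 0.344) nor Ulk1 (0.19, adjusted p = 0.134) was called. The call of Map1lc3a was also lost without the 1-week 5%, 1-week 30% or 1-month 30% array (adjusted p of 0.0513 to 0.0576), and that of Ulk1 without either 30% array (0.0521 and 0.0549), in ranges of 0.00133 to 0.344 and 0.007 to 0.134 over all alternatives. Sqstm1 was just short of the threshold (0.18 ± 0.06, adjusted p = 0.0563) and was called under median centring (0.26, adjusted p = 0.0434) and quantile normalization (0.23, adjusted p = 0.00498). The median over all probe sets moved from −0.01 to 0.08 under median centring, and the calls over all probe sets from 691 positive and 862 negative to 937 and 428. Ctsl (0.16 ± 0.08, adjusted p = 0.227), Bnip3, Bnip3l, Becn1 and Ctsb were not called.

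**Figure D4:**
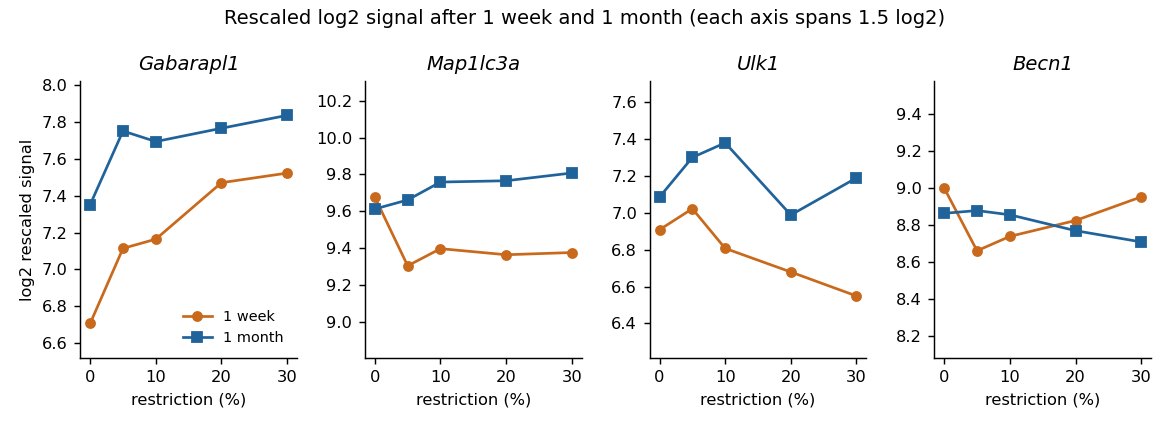
Rescaled log2 signal against the level of CR in percent (0 is the control) after 1 week (circles) and 1 month (squares), for the 3 members called between durations and for Becn1, which was not. Each point is 1 array, and the axis of every panel spans 1.5 log2. For Gabarapl1 and Ulk1 the 1-month line is above the 1-week line at all 5 levels, for Map1lc3a at 4 of 5, and for Becn1 the lines cross.

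A wider list placed the members among 121 genes of the pathway in 8 groups, of which 107 had a tested probe set. It was also drawn up with earlier results of these data known, so its counts are a description. Against control, Gabarapl1 and Foxo3 rose and Stbd1 fell, 3 of 107 genes, where 2.0% of all probe sets were called (1.13% positive, 0.876% negative). Each list gene was read on its brightest probe set, while the shares here and below cover all tested probe sets, dimmer ones included. With the filter at the 70th percentile, 171 of 9313 probe sets were called positive and 147 negative. Of 95 list genes, 3 were then called positive and 1 negative. Of the 107 estimates, 68 were positive, against 48.3% over all probe sets, with a median of 0.06 against −0.01 over all probe sets. Foxo3, a transcription factor that drives autophagy and atrophy genes, had a signal of 244 on the 1-week control against 295 to 379, and of 238 on the 1-month control against 325 to 396 (0.49 ± 0.11, limma adjusted p = 0.0272). Stbd1, a receptor that brings glycogen to the lysosome, had a signal of 1300 on the 1-week control against 802 to 968, and of 975 on the 1-month control against 699 to 861 (−0.42 ± 0.09, adjusted p = 0.0281). Both calls were lost without either control array (adjusted p from 0.066 to 0.337) and after the exchange of the 5% and control arrays of 1 week (0.32 for Foxo3, −0.09 for Stbd1), and that of Foxo3 also without the 1-week 20% array (adjusted p = 0.0509). Of the groups, nucleation had 12 of 14 estimates positive with 0 called, and conjugation had 6 of 12 positive with Gabarapl1 called.

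With the level of restriction, 5 of 107 genes rose and 0 fell, where 0.941% of all probe sets were called with a positive and 1.06% with a negative slope. With the filter at the 70th percentile, 149 of 9313 probe sets were called positive and 181 negative. Of 95 list genes, 5 were then called positive and 0 negative. Of the 107 slopes, 72 were positive, against 48.3% over all probe sets, and the median was 0.02 against −0.003 over all probe sets. Of the 5, 3 belong to the 16 lysosomal proteases and their inhibitors. Ctss, cathepsin S, a protease of antigen-presenting cells, had a signal of 96.9 on the 1-week control against 98.7 to 169.6, and of 92.1 against 90.9 to 175 at 1 month (0.27 ± 0.05 per 10 percentage points, limma adjusted p = 0.00728). Ctsl was another, and so was Cst3, the secreted cysteine protease inhibitor cystatin C (0.15 ± 0.03, adjusted p = 0.00832). Cst3 was outside the rule that chose named genes and was named after its values were seen. Foxo3 (0.19 ± 0.04, adjusted p = 0.0119) and Gabarapl1 were the others.

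The calls of Ctss and Foxo3 were lost without the 1-week 30% array (adjusted p = 0.0619 and 0.063), that of Foxo3 also without either control (0.0557 and 0.0526), and that of Cst3 without the 1-month 30% array (0.0528). With slow fibre markers as a covariate 1 of the 107 genes was called. None of the 22 genes of the lysosomal membrane and hydrolases was called by level, nor any of the 14 nucleation, 14 receptor, 10 fusion or 5 initiation genes.

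**Figure D5:**
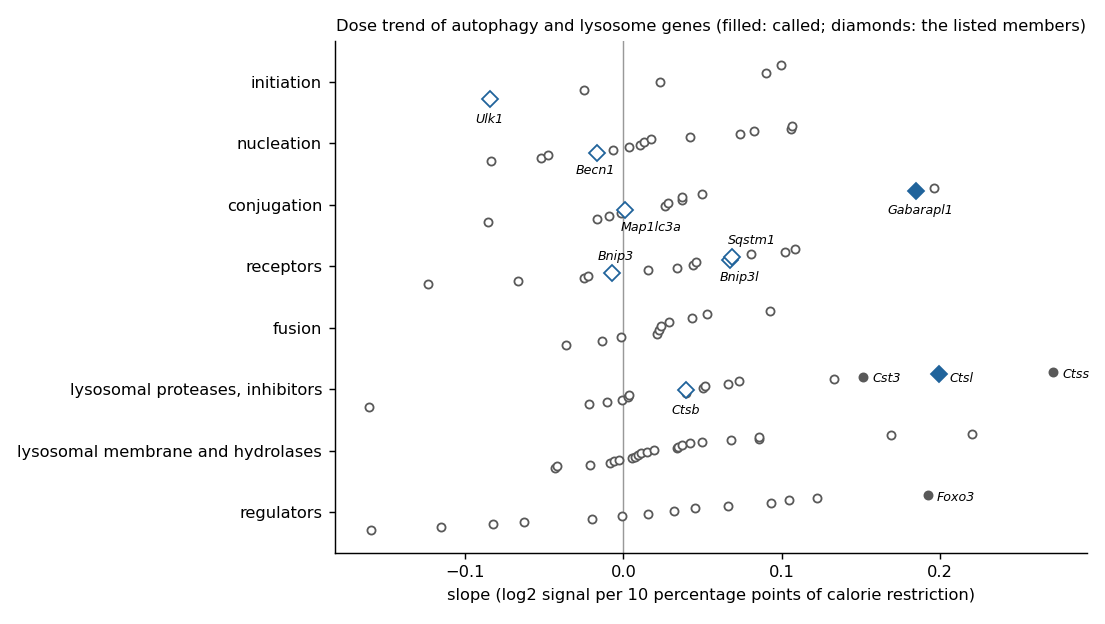
Slope of log2 signal per 10 percentage points of CR for 107 autophagy and lysosome genes (brightest probe set of each), arranged in 8 groups. Diamonds are the listed members, filled symbols passed limma's test at an adjusted p of 0.05, and the vertical spread within a group only separates points. Filled points are Gabarapl1, Ctsl, Ctss, Cst3 and Foxo3, all to the right of 0.

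From 1 week to 1 month, 14 of 107 list genes rose and 1 fell, where 4.45% of all probe sets were called positive and 5.55% negative. The shares called were larger among brighter probe sets, on which the list genes were read. With the filter at the 70th percentile, 737 of 9313 probe sets were called positive and 744 negative. Of 95 list genes, 18 were then called positive and 3 negative. Of the 107 estimates, 74 were positive, against 48.8% over all probe sets, with a median of 0.11 against −0.01 over all probe sets. The largest rises were those of Fbxo32, the muscle ubiquitin ligase atrogin-1 (0.69 ± 0.13, limma adjusted p = 0.00316), Retreg1, a receptor for endoplasmic reticulum (0.56 ± 0.09, adjusted p = 0.000955), the lysosomal regulator Mitf (0.49 ± 0.09, adjusted p = 0.00466) and Gabarapl1. Ctsh, cathepsin H, fell by 0.35 ± 0.06 log2 (adjusted p = 0.00227), and this call was lost under median centring (−0.26, adjusted p = 0.0695). With the signal as deposited, 4 list genes were called higher and 28 lower at 1 month.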

How the data were processed

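RNA of 10 groups, each a pool of 5 rats, was measured on 1 Affymetrix Rat Genome 230 2.0 array per group. The authors deposited 1 linear intensity per probe set and array, the MAS5 signal, after scaling each array in MAS5. The number of arrays limits the precision. Detection and change calls were not used here. The members, the pathway and marker lists and the tests were chosen with earlier results of these data known.

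The log2 of the signal was taken with a floor of 0.1. Tests covered the 15521 probe sets in the upper part of mean log2 signal (from the 50th percentile, a mean signal of at least 17.8), without Affymetrix control features. Names came from the platform annotation, updated through RefSeq: 20826 probe sets carried 1 gene, 436 several and 9780 none, and 20758 matched. A gene was represented by its brightest probe set in lists, and members by all their probe sets.

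The package limma 3.58.1 (R 4.3.3) was used for all fits, by lmFit and then eBayes with a variance trend. The Benjamini-Hochberg adjustment ran over all tested probe sets at 0.05. Restricted against control and the slope on the level of CR were fitted over 10 arrays with duration as a factor, the slope also over the 8 restricted arrays. Duration was fitted with the level as a covariate after every array was rescaled to 1 trimmed mean (2nd to 98th percentile). Differences between durations were fitted as interactions. Residual degrees of freedom were 5 to 7 and came from arrays of different levels, not from replicates. All comparisons except the slope over the restricted arrays share the 2 control arrays. The scripts were tested on simulated data.

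Named list genes were, in each comparison, up to 4 called genes with the largest estimates in each direction. Marker lists were fast and slow muscle fibre, macrophage, fibroblast, red blood cell and adipocyte. The last 2 had mean log2 signals of 4.10 to 5.86 and of 3.72 to 5.23. Alternatives were median centring, quantile normalization, a filter at the 70th percentile or none, a constant of 32 added before log2, no variance trend, the rank of the level, the level as a block for duration, slow fibre markers as a covariate, either duration alone, the signal as deposited for duration, other minimum ratios, each array left out in turn, and the 5% and control arrays of 1 week exchanged.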

Additional observations from a re-analysis of the deposited data

Results flagged for a closer look

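In 3 of the 15 tested member probe sets the 4 ratios to control lay on one side of 0 at 1 week and on the other at 1 month. The same held for 8.67% of all probe sets tested. The test of the difference between durations (log2 change at 1 month minus that at 1 week) passed the adjustment for none of them. It gave 0.45 (0.452 ± 0.132, limma adjusted p = 0.472) for Map1lc3a, −0.26 (−0.256 ± 0.123, adjusted p = 0.702) for Bnip3 and 0.76 (0.763 ± 0.308, adjusted p = 0.627) for the dimmer Ulk1 probe set. With the 1-week control and 5% arrays exchanged, these values were −0.01, −0.13 and 0.16. The brighter Ulk1 probe set did not share the pattern, with ratios on both sides of 0 within each duration.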

How the results depend on the processing

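With 1 array per group, every estimate rests on the spread between levels of CR, and every ratio on 2 control arrays. For single genes, 859 of 1007 recomputed values were unchanged. An estimate was unchanged if it kept its direction and its side of the threshold, so those that stayed uncalled are included. A count of ratios above 0 was unchanged if it stayed near the main count. The calls themselves held less often, that of Gabarapl1 in 9 of 20 alternatives against control and in 6 of 21 by level.

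Restricted against control, 311 probe sets were called, and 77 without the variance trend, 1 with the 1-week control and 5% arrays exchanged, 34 at 1 week alone, 129 at 1 month alone, 78 with slow fibre markers as a covariate and 27 to 455 without 1 array. The 3 pathway genes called there became 0 under those settings and under median centring, and 0 to 5 without 1 array. By level of CR, 310 probe sets were called, and 196 under median centring, 73 without the trend, 161 after the exchange, 109 and 6 at 1 week and 1 month alone, 65 with the covariate and 86 to 368 without 1 array. The 5 pathway genes became 1 without the trend or with the covariate, 0 in either duration alone, and 2 to 5 without 1 array. In restricted arrays alone, 38 became 24 under median centring, 1 without the trend and 6 to 35 without 1 array. Between durations, the signal as deposited called 5263 probe sets and 32 pathway genes, against 1553 and 15. Restricted by duration called 0, and 2 under quantile normalization or the 70th percentile filter and 0 to 26 without 1 array, and level by duration 0 to 2. Ratios of at least 0.25 in all 8 comparisons held for 395 probe sets, against 2570 at 0, 100 at 0.5, 220 with 32 added, 1032 without the filter and 127 after the exchange.

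Uncalled members changed sign as follows. Against control, Map1lc3a was 0.143 after the exchange, 0.136 at 1 month, 0.0112 with the covariate and −0.316 to 0.136 without 1 array. Bnip3 was 0.000181 under quantile normalization, 0.0917 at 1 week and −0.164 to 0.0917 without 1 array. Ulk1 was 0.00022, 0.129 at 1 month, 0.122 with the covariate and −0.144 to 0.129. Becn1 was 0.0795 after the exchange. Ctsb was −0.0482 at 1 week, −0.0114 with the covariate and −0.0482 to 0.0659 without 1 array. By level, Map1lc3a was −0.00603 under quantile normalization, −0.00226 by rank, −0.0599 at 1 week and −0.0219 to 0.0442 without 1 array. Bnip3 was 0.00535 under median centring and −0.0215 to 0.0135, and Becn1 0.0253 at 1 week, 0.00656 with the covariate and −0.0552 to 0.00815. Between durations, the deposited scaling gave −0.0282 for Sqstm1, −0.175 for Bnip3, −0.177 for Bnip3l and −0.0403 for Ctsl, and median centring 0.0676 for Becn1 and 0.0193 for Ctsb, with −0.00691 to 0.0589 for Bnip3 and −0.0711 to 0.0323 for Becn1 without 1 array. The difference between durations for Map1lc3a was −0.0128 after the exchange. The cause of these changes was not tested. The difference between durations in restricted against control could not be fitted without either control. No paired analysis was possible because each group had 1 array and replicate numbers pair none of them, but arrays of both durations share a level of CR, and with the level as a block 1365 probe sets were called between durations (607 positive, 758 negative) and 16 pathway genes.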
